A study of Mus musculus with 20 samples.

Results

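The cytochrome P450 2B (CYP2B) genes of mouse liver were followed together with the receptors CAR (gene *Nr1i3*) and PXR (gene *Nr1i2*) over 4 oral dose groups of benzo(a)pyrene (BaP). The genes listed were *Cyp2b9*, *Cyp2b10*, *Cyp2b13*, *Cyp2b19*, *Cyp2b23*, *Nr1i2* and *Nr1i3*, and the members were all probes whose accession maps to one of these 7 symbols. Of 41174 probes on the array, 8 were members, and they covered 6 of the 7 genes. *Cyp2b9* and *Cyp2b13* had 2 probes each, called brighter and dimmer by their mean signal, and *Cyp2b10*, *Cyp2b19*, *Nr1i2* and *Nr1i3* had 1 probe each. No probe mapped to *Cyp2b23*, and the gene has no value here. All 8 probes passed the presence filter, which kept 27346 probes whose liver signal exceeded that of negative controls on 4 or 5 arrays of some group.

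The animals were 20 male Muta™Mouse mice (transgenic strain 40.6, carrying the *lacZ* reporter), 25 weeks old. Each received olive oil alone (control, 5 mice) or BaP dissolved in olive oil at 25, 50 or 75 mg/kg/day (5 mice per dose) by gavage every day for 28 days, and liver was taken 3 days after the last dose. One array was hybridised per mouse, with liver RNA in the Cy5 channel and a universal reference RNA from mouse cell lines in the Cy3 channel. The unit throughout is the log2 ratio of liver over reference for a probe, and the level of a probe is not compared with that of another probe. The labels name lungs as the source of the RNA in a free text field and liver as the tissue. All 5 present hepatocyte markers (of 8 listed) were well above background on every array. For lung epithelium, 4 of 8 markers were present and none was well above background on all arrays (*Sftpd* differed by 1.19 at 75 mg/kg/day, adjusted p = 0.0688 by limma). Replicates were numbered 1 to 5 (control), 6 to 10 (25 mg/kg/day), 11 to 15 (50 mg/kg/day) and 16 to 20 (75 mg/kg/day). Of the liver channel, between 51.9% and 67.5% of spots were well above background, and control replicate 4 stood apart from the other controls (67.5% against 51.9% to 54.3%). The arrays of each dose sat largely at 1 position of the 4-array slides (all 25 mg/kg/day arrays at position 2, all 75 mg/kg/day arrays at position 4), so position and dose cannot be told apart.

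CYP2B enzymes are haem proteins of the hepatocyte endoplasmic reticulum that oxidise drugs, steroids and other foreign compounds. Their genes are the textbook targets of CAR, a nuclear receptor that moves into the nucleus after phenobarbital-like drugs and binds DNA as a dimer with RXR, while PXR is a related receptor that is activated directly by many drugs and bile acids and shares many of the same target genes. BaP itself is a ligand of another receptor, the aryl hydrocarbon receptor. In mouse liver *Cyp2b10* is the classical drug-inducible gene of the family, *Cyp2b9* and *Cyp2b13* are better known as genes with higher levels in females, and *Cyp2b19* is known mainly from skin keratinocytes.

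The 5 *Cyp2b* genes lie on chromosome 7 in the order *Cyp2b10*, *Cyp2b13*, *Cyp2b9*, *Cyp2b23*, *Cyp2b19*, with *Cyp2a4* between *Cyp2b9* and *Cyp2b23*; *Nr1i3* is on chromosome 1 and *Nr1i2* on chromosome 16. The 250 bases before the start of each gene were read from RefSeq (build GRCm38.p6), which held all 7 genes. The windows of the 3 genes with the largest differences between dose groups are given here because they show how alike *Cyp2b9* and *Cyp2b13* are, with *Cyp2b10* for comparison. In the *Cyp2b9* (chr7:26173159-26173408, + strand) and *Cyp2b13* (chr7:26061245-26061494, + strand) windows the capitals mark the only positions where they differ. In the *Cyp2b10* window (chr7:25897408-25897657, + strand) they mark GCGTG on either strand, the core letters of the site bound by the aryl hydrocarbon receptor.
Cyp2b9: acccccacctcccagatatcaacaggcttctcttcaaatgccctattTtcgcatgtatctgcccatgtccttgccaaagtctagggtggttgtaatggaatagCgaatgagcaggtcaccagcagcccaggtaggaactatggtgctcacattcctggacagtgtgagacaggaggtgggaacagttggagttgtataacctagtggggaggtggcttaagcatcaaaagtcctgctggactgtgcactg
Cyp2b13: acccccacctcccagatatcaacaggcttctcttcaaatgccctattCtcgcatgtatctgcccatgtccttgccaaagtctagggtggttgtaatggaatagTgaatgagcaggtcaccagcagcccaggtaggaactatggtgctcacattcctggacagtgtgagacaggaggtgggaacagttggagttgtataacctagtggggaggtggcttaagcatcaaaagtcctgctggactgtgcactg
Cyp2b10: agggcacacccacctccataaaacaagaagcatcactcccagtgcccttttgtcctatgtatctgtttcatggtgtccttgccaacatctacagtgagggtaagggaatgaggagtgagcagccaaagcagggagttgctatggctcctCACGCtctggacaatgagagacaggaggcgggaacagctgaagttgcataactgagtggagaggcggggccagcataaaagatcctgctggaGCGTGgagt

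The *Cyp2b9* and *Cyp2b13* windows were identical at 248 of 250 positions (99.2%). Their 2 differences, with the *Cyp2b9* base first and positions counted from 1 at the 5′ end of the window, were T48C and C104T. The longest run they shared was the 146 bases just before the start. Compared position by position, without shifts or gaps, every other pair among the 7 windows was identical at 22% to 30.8% of positions. This count misses likeness at shifted positions, so it does not measure how related these windows are. *Cyp2b9* shared a run of 22 bases with *Cyp2b19*, while the longest run shared by *Nr1i2* and *Nr1i3* was 8 bases. The longest run shared by *Cyp2b9* and *Cyp2b10* was 12 bases, and *Cyp2b10* shared a run of 34 bases with *Cyp2b23*. AGGTCA, the hexamer bound by many nuclear receptors, was found once each in the *Cyp2b9*, *Cyp2b13*, *Cyp2b19* and *Cyp2b23* windows, inside a run of 20 bases that all of them share:
Shared run: agcAGGTCAccagcagccca

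The hexamer was not found in the *Cyp2b10*, *Nr1i2* and *Nr1i3* windows. Searched on both strands, AGGTCA occurred in 14.0% of the 32851 windows of this length in the table. GCGTG occurred in 28.2% of all windows and, among the 7 genes, in the *Cyp2b10* window alone, where it was found 9 bases before the start on the same strand and 97 bases before it on the opposite strand. The same-direction pair of AGGTCA hexamers 4 bases apart, an arrangement known to be bound by CAR and PXR with RXR, was in none of the 7 windows and in 0.0152% of all windows. These are matches of letters within 250 bases and say nothing of binding elsewhere.

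*Cyp2b9*, *Cyp2b13* and *Cyp2b10* had higher mean ratios than control at every dose by all 5 of their probes, with differences between 0.40 and 1.52 on the log2 scale. None of these differences passed the test at any single dose. The brighter *Cyp2b9* probe (A_51_P467076) was the nearest to the threshold and rose with dose in the trend test, although this call was lost under several other settings. *Cyp2b19* and both receptors stayed within 0.35 of control at each dose.

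On the brighter *Cyp2b9* probe the 5 control mice read 5.89, 4.94, 4.16, 5.00 and 4.48. At 25 mg/kg/day the values were 6.02, 5.05, 5.36, 5.52 and 5.56, and at 50 mg/kg/day they were 5.88, 5.63, 5.53, 6.00 and 6.05. The mice at 75 mg/kg/day read 6.10, 5.99, 6.10, 5.65 and 6.02. The groups overlapped at each dose because control replicate 1, at 5.89, was as high as many exposed mice, while the other controls lay between 4.16 and 5.00 and the 15 exposed mice between 5.05 and 6.10. The means ± SD (n = 5) were 4.89 ± 0.65 in control, 5.50 ± 0.35, 5.82 ± 0.23 and 5.97 ± 0.19 in order of dose, so the spread among mice was widest in the control group. Against control the differences were 0.61 at 25 mg/kg/day (95% interval 0.12 to 1.09, adjusted p = 0.636 by limma over all 27346 probes) and 0.92 at 50 mg/kg/day (0.44 to 1.41, adjusted p = 0.481). At 75 mg/kg/day the difference was 1.08, or 2.11-fold (SE 0.23, 95% interval 0.59 to 1.56), with an adjusted p of 0.0715 by limma.

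The trend over dose on this probe was 0.36 per 25 mg/kg/day with an adjusted p of 0.0476 by limma, the only member probe of 8 to pass, where 0.154% of all probes had a rising trend. With slide as a block the trend was 0.33 (adjusted p = 0.032). Under processed signals, median centring, the deposited LOWESS ratios, the liver channel alone or no presence filter, it no longer passed, and of the 20 fits that left out 1 mouse it passed in 3 (trends of 0.30 to 0.42 over the 20, adjusted p from 0.00612 to 0.152 by limma). These were the fits without control replicate 1, replicate 6 at 25 mg/kg/day or replicate 19 at 75 mg/kg/day. Within the 3 slides that held both a control and a 75 mg/kg/day array, the difference was 0.21, 0.98 and 1.62. Without control replicate 1, the difference at 75 mg/kg/day was 1.33 and passed (adjusted p = 0.00403 by limma), and without replicate 19 of the 75 mg/kg/day group it was 1.16 and passed (adjusted p = 0.0473).

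**Figure D1:**
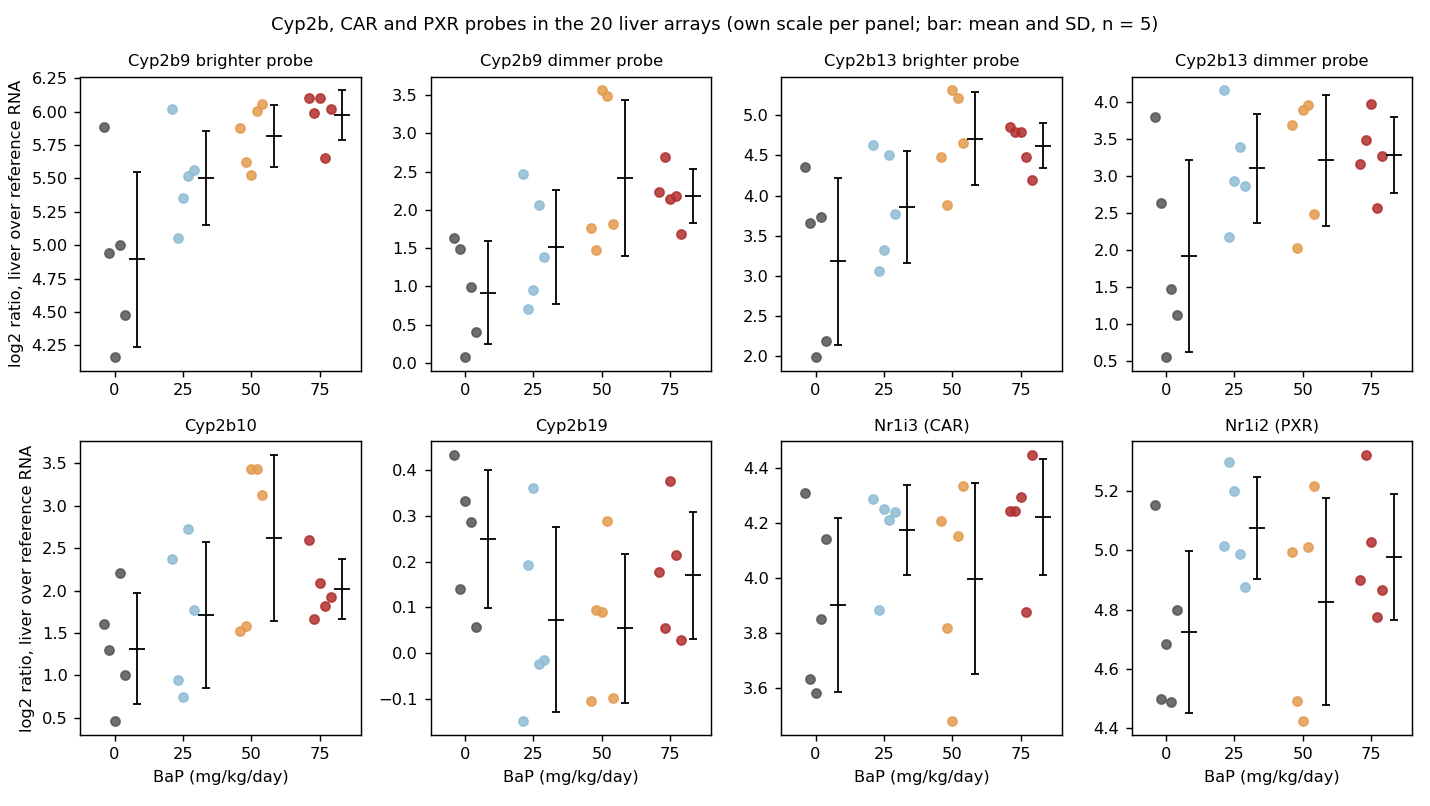
Log2 ratio of liver over reference RNA (y axis, own scale in each panel) against BaP dose in mg/kg/day (x axis) for the 8 member probes, with 1 point per mouse and the mean ± SD of the 5 mice beside each group. Control mice spread widely on the *Cyp2b9*, *Cyp2b13* and *Cyp2b10* panels, and 1 control on the brighter *Cyp2b9* panel lies at 5.89 among the exposed mice.

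The dimmer *Cyp2b9* probe (A_52_P256914) read 1.63, 1.48, 0.07, 0.99 and 0.40 in control mice. At 75 mg/kg/day it read 2.24, 2.69, 2.15, 2.18 and 1.69, all above all controls, as was the case for 0.936% of probes. At 50 mg/kg/day the readings were 1.76, 1.47, 3.56, 3.49 and 1.81, with 4 of 5 above all controls (2.61% of probes had 4 or 5 above), and at 25 mg/kg/day they were 2.46, 0.71, 0.95, 2.07 and 1.39. Replicates 13 and 14 of the 50 mg/kg/day group were far above the other mice on this probe. Differences from control were 0.60, 1.5 and 1.27 in order of dose, the last with a 95% interval of 0.40 to 2.14 and an adjusted p of 0.269 by limma. The reference channel of this probe was well above background on only 1 of 20 arrays, so its ratio has a denominator near background.

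*Cyp2b13*, the neighbour and closest relative of *Cyp2b9*, gave the largest differences among the members. On its brighter probe (A_51_P492339) controls read 4.35, 3.66, 1.99, 3.73 and 2.19, and the mice at 50 mg/kg/day 4.49, 3.88, 5.31, 5.21 and 4.66. The mice at 25 mg/kg/day read 4.63, 3.06, 3.33, 4.51 and 3.77, and those at 75 mg/kg/day 4.85, 4.79, 4.79, 4.48 and 4.19. Control replicates 3 and 5 were the lowest of all 20, and control replicate 1 again lay among the exposed mice, so the groups overlapped at each dose, with 4 of 5 mice above all controls at 50 and at 75 mg/kg/day (2.61% and 3.88% of probes had 4 or 5). Group means ± SD (n = 5) were 3.19 ± 1.04, 3.86 ± 0.70, 4.71 ± 0.58 and 4.62 ± 0.28. The differences from control were 0.67, 1.52 and 1.44 (SE 0.40 each), and the adjusted p-values by limma were 0.68, 0.481 and 0.19. By size the 50 mg/kg/day difference was the number 4 highest of 27346 probes.

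The dimmer *Cyp2b13* probe (A_52_P289091) read 3.79, 2.63, 0.56, 1.48 and 1.12 in control and 3.15, 3.48, 3.97, 2.56 and 3.27 at 75 mg/kg/day. The lower doses gave 4.15, 2.17, 2.93, 3.39 and 2.86 at 25 mg/kg/day and 3.68, 2.03, 3.88, 3.96 and 2.49 at 50 mg/kg/day. Control replicate 1 was above 4 of the 5 mice at 75 mg/kg/day here, and control replicate 3 was again the lowest mouse. The differences were 1.18, 1.29 and 1.37 (adjusted p = 0.636, 0.697 and 0.325 by limma). For each *Cyp2b13* probe the reference channel was well above background on 15 of 20 arrays. For the dimmer probe these included 2 of 5 control arrays and 5 of 5 at 75 mg/kg/day. For the brighter probe they included 3 of 5 and 4 of 5.

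*Cyp2b10*, the drug-inducible gene, had its highest mean at 50 mg/kg/day and not at the top dose. The same held for the brighter *Cyp2b13* probe (4.71 against 4.62 at 75 mg/kg/day) and the dimmer *Cyp2b9* probe (2.42 against 2.19). Controls read 1.60, 1.30, 0.46, 2.21 and 1.00, and the mice at 25 mg/kg/day 2.37, 0.95, 0.75, 2.72 and 1.77. The probe (A_52_P472486) at 50 mg/kg/day read 1.52, 1.59, 3.43, 3.43 and 3.13, so 3 mice were above the highest control (2.21) and the other 2 lay inside the control range. The mice at 75 mg/kg/day, at 2.59, 1.66, 2.09, 1.82 and 1.93, were close together and overlapped the controls, with 1 of 5 above all of them. The means ± SD (n = 5) were 1.31 ± 0.66, 1.71 ± 0.86, 2.62 ± 0.98 and 2.02 ± 0.36. The difference from control was 0.40 for 25 mg/kg/day (adjusted p = 0.83 by limma), 1.31 at 50 mg/kg/day (SE 0.43, adjusted p = 0.676) and 0.70 at 75 mg/kg/day (95% interval -0.19 to 1.59, adjusted p = 0.551). The gap between the means at 50 and 75 mg/kg/day was smaller than the SD of the 50 mg/kg/day group. The reference channel was well above background for this probe on 5 of 20 arrays.

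*Cyp2b19*, the keratinocyte gene, had ratios near 0 in all groups. Controls read 0.43, 0.14, 0.33, 0.29 and 0.06, and the mice at 75 mg/kg/day 0.18, 0.06, 0.38, 0.22 and 0.03. Exposed mice at 25 mg/kg/day lay between -0.15 and 0.36, and those at 50 mg/kg/day between -0.11 and 0.29. Its probe (A_51_P352763) had the smallest spread of the members. The differences from control were -0.18, -0.20 and -0.08 (adjusted p = 0.70, 0.781 and 0.831 by limma). Liver signal was well above background on 14 of 20 arrays, and its level is therefore close to the limit of detection.

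**Figure D2:**
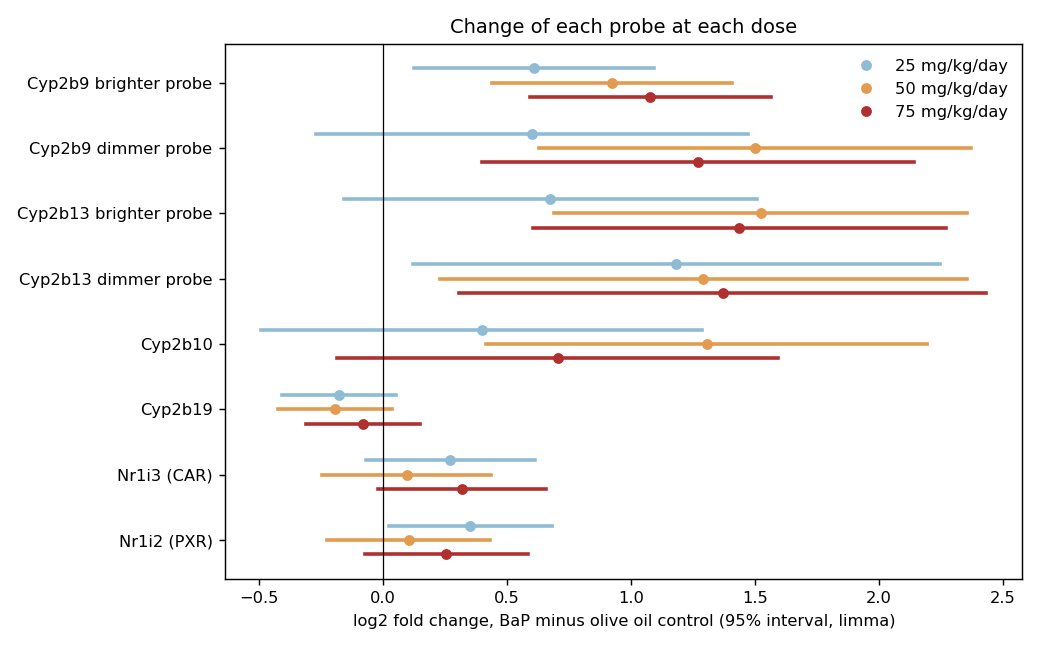
Difference from control on the log2 scale (x axis, BaP minus olive oil control) for each member probe (y axis), with points at the estimate, bars for the 95% interval from limma, and colours for the 3 doses. The *Cyp2b9*, *Cyp2b13* and *Cyp2b10* probes lie to the right of 0 with wide intervals, *Cyp2b19* lies between -0.20 and -0.08, and the receptors lie between 0.095 and 0.35.

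CAR and PXR themselves moved little. For *Nr1i3* (A_51_P358256) the controls read 4.31, 3.63, 3.58, 3.85 and 4.14, and the mice at 75 mg/kg/day 4.24, 4.25, 4.29, 3.88 and 4.45. The values at 25 mg/kg/day were 4.29, 3.88, 4.25, 4.21 and 4.24, and at 50 mg/kg/day 4.21, 3.82, 3.48, 4.15 and 4.33. Groups overlapped at each dose. The differences were 0.27, 0.095 and 0.32, the last with a 95% interval of -0.02 to 0.66 and an adjusted p of 0.474 by limma.

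For *Nr1i2* (A_51_P266958) the controls read 5.15, 4.50, 4.68, 4.49 and 4.80, and the mice at 25 mg/kg/day 5.02, 5.30, 5.20, 4.99 and 4.88. The values at 50 mg/kg/day were 4.99, 4.49, 4.42, 5.01 and 5.22, and at 75 mg/kg/day 4.90, 5.32, 5.03, 4.78 and 4.87. Above control replicate 1, the highest control, were 2 mice at 25 mg/kg/day, 1 at 50 and 1 at 75 mg/kg/day, and the other exposed mice overlapped the controls or lay below them. The differences were 0.35 at 25 mg/kg/day (95% interval 0.02 to 0.68, adjusted p = 0.636 by limma), 0.10 at 50 mg/kg/day (adjusted p = 0.932) and 0.25 at 75 mg/kg/day (-0.07 to 0.58, adjusted p = 0.562). In the liver channel alone, normalised without the reference, both receptors lay within 0.23 of control at each dose, and 4 of the 6 values took the opposite sign (*Nr1i3* -0.23 and -0.06 at 25 and 50 mg/kg/day, *Nr1i2* -0.03 and -0.01 at 50 and 75 mg/kg/day).

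Counted over the 8 probes, none was called at any dose, a call being a fold above 1.5 with an adjusted p below 0.05. Of all probes 0% were called at 25 and 50 mg/kg/day, and 0.132% were called higher and 0.00366% lower at 75 mg/kg/day. At an unadjusted p under 0.05, 3, 5 and 4 of the 8 passed at 25, 50 and 75 mg/kg/day, where 7.81%, 6.70% and 11.2% of all probes did. The median difference of the 8 was 0.50, 1.11 and 0.89, beside 0.00 over all probes at each dose, and *Cyp2b19* was the negative member each time. Since 5 of the 8 probes belong to 3 genes of closely related sequence, these counts are not of independent measurements. The p-values measure the spread between these mice, with 1 array each and a bulk liver sample, in which fewer cells of a type and less RNA per cell cannot be told apart.

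The spread between mice of a group was itself a feature of these genes. The pooled within-group SD was 0.40 for the brighter *Cyp2b9* probe and between 0.70 and 0.90 for the other 4 probes of *Cyp2b9*, *Cyp2b10* and *Cyp2b13*, beside a median of 0.22 over present probes. Between 90.8% and 99.5% of probes varied less. *Nr1i2* (0.26) and *Nr1i3* (0.27) were nearer the median, and *Cyp2b19* (0.17) was below it. The mice that were high were high on several probes. Control replicate 3 was the lowest of the 20 mice on all 5 probes, and replicate 14 of the 50 mg/kg/day group had the highest mean rank (2.8 of 20), followed by replicate 13 of the same group (4.2). Replicate 7 at 25 mg/kg/day had a mean rank of 17.2, below most controls.

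The 5 probes also moved together across the 20 arrays. Pearson's r between the brighter *Cyp2b9* and *Cyp2b13* probes was 0.88, and 0.78 with group means removed. It was 0.82 between *Cyp2b10* and the brighter *Cyp2b13* probe, 0.93 between the dimmer *Cyp2b9* and the brighter *Cyp2b13* probe, and 0.72 between the brighter and dimmer *Cyp2b9* probes. The arrays share the reference RNA, and signal of near-identical relatives on each other's probes was not tested. Probe sequences were not used here.

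**Figure D3:**
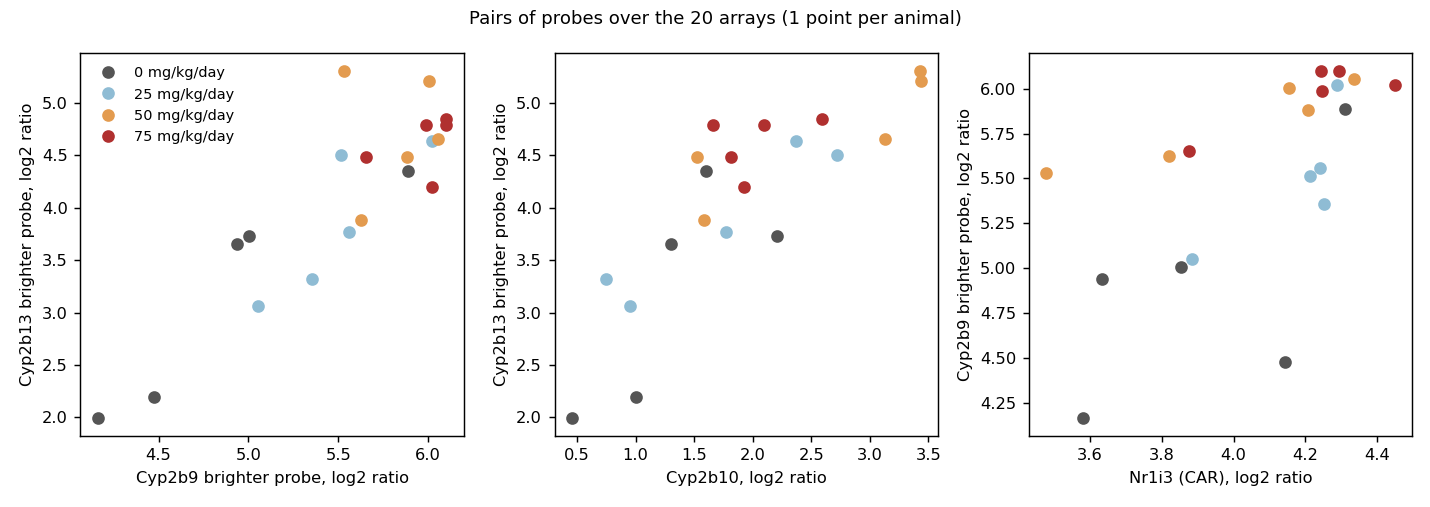
Log2 ratios of 3 pairs of probes over the 20 arrays, 1 point per mouse and coloured by dose: the brighter *Cyp2b9* (x) and *Cyp2b13* (y) probes, *Cyp2b10* (x) and the brighter *Cyp2b13* probe (y), and *Nr1i3* (x) and the brighter *Cyp2b9* probe (y). The first 2 panels run along a diagonal (r = 0.88 and 0.82), and in the last panel (r = 0.63) mice with high CAR ratios spread over much of the *Cyp2b9* range.

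Differences between relatives at the same dose were set against the spread between mice in 9 comparisons, each an exact two-sided permutation test of 5 against 5 mice (smallest possible p = 0.00794). At 75 mg/kg/day *Cyp2b9* exceeded *Cyp2b10* in its change by 0.37 (95% interval -0.26 to 1.01, exact p = 0.222, adjusted p = 0.5), and *Cyp2b10* was below *Cyp2b13* by 0.73 (95% interval of the difference -1.5 to 0.04, exact p = 0.0952, adjusted p = 0.5). At 50 mg/kg/day *Cyp2b9* minus *Cyp2b13* was -0.60 (95% interval -1.40 to 0.20, exact p = 0.127, adjusted p = 0.5). None of the 9 passed, and the interval for *Cyp2b9* minus *Cyp2b10* at 50 mg/kg/day ran from -1.52 to 0.76. With the scanner software's processed signals, *Cyp2b9* minus *Cyp2b10* at 75 mg/kg/day was -1.03.

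Receptor and enzyme ratios were related across the 20 mice in 6 pairs (100000 permutations, adjusted over the 6). *Nr1i3* with the brighter *Cyp2b9* probe had Pearson's r = 0.63 (permutation p = 0.00314, adjusted p = 0.0188) and Spearman's rho = 0.71 (permutation p = 0.00067, adjusted p = 0.00402). After leaving out the 2 mice farthest from the *Nr1i3* median r was 0.61 (permutation test, adjusted p = 0.043). With slide means removed r was 0.47 (permutation test, adjusted p = 0.219), and in the liver channel alone it was 0.16 (permutation test, adjusted p = 0.749), so the call was lost in both. With group means removed r was 0.66. With the dimmer *Cyp2b9* probe the r of *Nr1i3* was 0.11, and with the mean of both probes it was 0.33 (permutation test, adjusted p = 0.448). The call was also lost without control replicate 2 (r = 0.60, permutation test, adjusted p = 0.0515) or control replicate 3 (r = 0.53, permutation test, adjusted p = 0.124). The other pairs had r between -0.07 and 0.41, with adjusted p-values from 0.217 up by permutation, and *Nr1i3* with *Cyp2b13* passed without replicate 13 at 50 mg/kg/day (r = 0.54, permutation test, adjusted p = 0.0469). *Nr1i2* with *Cyp2b9* was the highest of them and passed with processed signals (r = 0.73, permutation test, adjusted p = 0.00192) and with median centring, but was near 0 in the liver channel alone, and *Nr1i2* and *Nr1i3* with *Cyp2b10* were at -0.07 and 0.14.

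The genes whose ratios were most like each member over the 20 arrays, chosen as the 5 of highest Pearson's r, were in part other members. *Cyp2b9* was nearest to *Cyp2b13* (0.88), *Acss2* (0.83), *Hsd11b1* (0.82), *Tlcd2* (0.82) and *Nat8* (0.81). *Cyp2b13* was nearest to *Cyp2b9* (0.88), *Gstm7* (0.83), *Cyp2b10* (0.82), *Qdpr* (0.80) and *Bmp6* (0.79). *Cyp2b10* was nearest to *Cyp2b13* (0.82), *Cyp2c55* (0.78), *Got1* (0.78), *Ugt1a9* (0.78) and *Htr1d* (0.77). *Nr1i3* had the closest likenesses of all, with *Pbld2* (0.94), *Cyp2a12* (0.93), *F11* (0.93), *Hsd3b2* (0.91) and *Gsta3* (0.91). *Nr1i2* was nearest to *Sds* (0.83), *Leap2* (0.82), *Msrb1* (0.79), *N4bp2l2* (0.79) and *Ndufs5* (0.79), and *Cyp2b19* to *Stfa3* (0.77), *Gucy1b2* (0.76), *Lyzl4* (0.75), *Olfr812* (0.72) and *Card14* (0.70).

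Every array carried the same reference RNA. For the brighter *Cyp2b9* probe the raw reference signal ran from 55 to 296 (median 137) and the liver signal from 907 to 14532.5 (median 5271). They were related with r = 0.79 over the 20 arrays (permutation p = 0.00011, adjusted p = 0.00088 over 8 relations, Spearman's rho = 0.76), and 97.1% of present probes had a lower r. Without the 2 arrays farthest from the median r was 0.67. The *Cyp2b13* probes had r = 0.65 and 0.67 (permutation test, adjusted p = 0.0049 for both). The other members had lower values, from 0.008 for the dimmer *Cyp2b9* probe to 0.35 for *Cyp2b19*, beside a median of 0.17 over present probes. A higher reference signal lowers the ratio, and the part of this relation in the results was not tested. In the liver channel alone, the brighter *Cyp2b9* probe differed from control by 0.85, 1.75 and 1.61 at the 3 doses (adjusted p = 0.19 by limma at 75 mg/kg/day), and the brighter *Cyp2b13* probe by 0.55, 1.64 and 1.30. With processed signals the brighter *Cyp2b9* probe gave -0.06, -0.14 and 0.18, while its dimmer probe gave 1.45, 2.66 and 2.20.

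**Figure D4:**
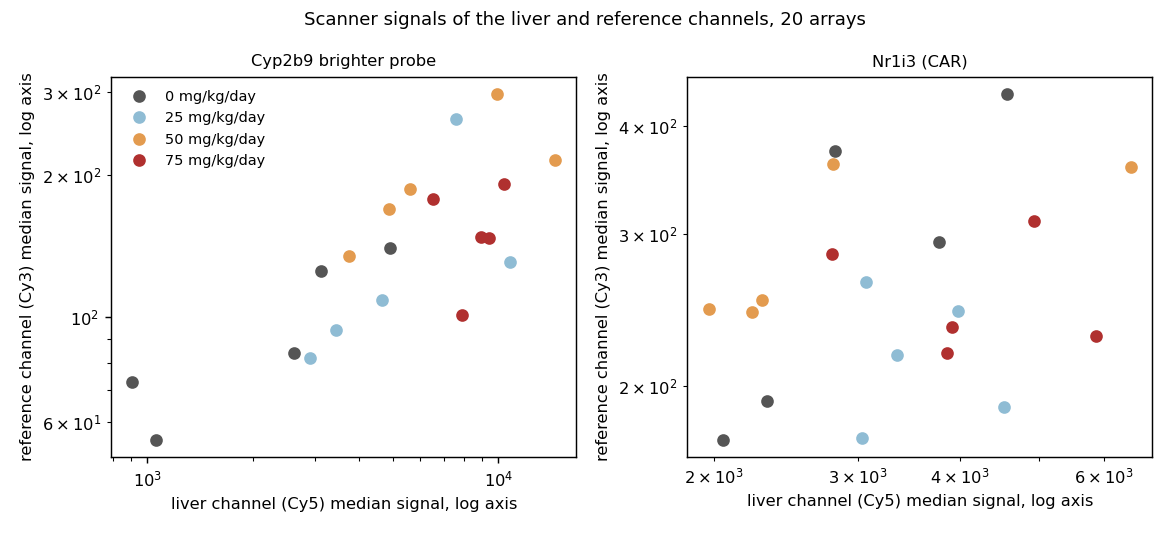
Raw median signal of the reference channel (y, log axis) against that of the liver channel (x, log axis) on the 20 arrays for the brighter *Cyp2b9* probe (left) and *Nr1i3* (right), with 1 point per array coloured by dose. On the left the reference signal is higher where the liver signal is higher (r = 0.79), and on the right the points scatter (r = 0.30).

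Known CAR and PXR target genes were read from a list of 40, mostly enzymes and transporters, of which 38 were tested. Control of these genes by other receptors was not tested. None was called at any dose by its brighter probe (0%, 0% and 0.193% of all genes were called higher at 25, 50 and 75 mg/kg/day). Their ratios leaned one way: 35, 35 and 36 of 38 were above control at the 3 doses, with medians of 0.24, 0.27 and 0.41, beside medians of -0.01, -0.01 and 0.00 over all genes. At an unadjusted p under 0.05, 3, 10 and 16 of 38 were higher and none lower, where 4.04%, 4.40% and 7.58% of genes were higher. In the liver channel alone the medians were 0.04, 0.26 and 0.21, with 30 of 38 positive at 75 mg/kg/day. The 5 hepatocyte markers had medians of 0.28, 0.23 and 0.34 at the 3 doses, all 5 positive at each, and of -0.02, -0.01 and -0.06 in the liver channel alone, and their part in the target values was not tested. *Gstm3*, a glutathione transferase, was highest at 0.90 at 75 mg/kg/day (SE 0.18, adjusted p = 0.0511 by limma, 5 of 5 mice above all controls). It passed without control replicate 1 (1.03, adjusted p = 0.0152) and without replicate 9 at 25 mg/kg/day (adjusted p = 0.0451 by limma, the difference unchanged). *Cyp2c38*, a P450 of the CYP2C family, was at 0.87 (SE 0.23, adjusted p = 0.168 by limma). Its liver signal was well above background on only 2 of 5 control arrays. *Slco1a4*, an organic anion uptake transporter, was at 0.67 (adjusted p = 0.453 by limma). Several listed genes were also named by the study from these mice, so the list is not independent of them. Without control replicate 1 the called target genes were *Gstm3*, *Cyp2c29* (0.73, adjusted p = 0.0327) and *Cyp3a41a* (0.67, adjusted p = 0.0475 by limma), both P450s named here after their values were seen.

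**Figure D5:**
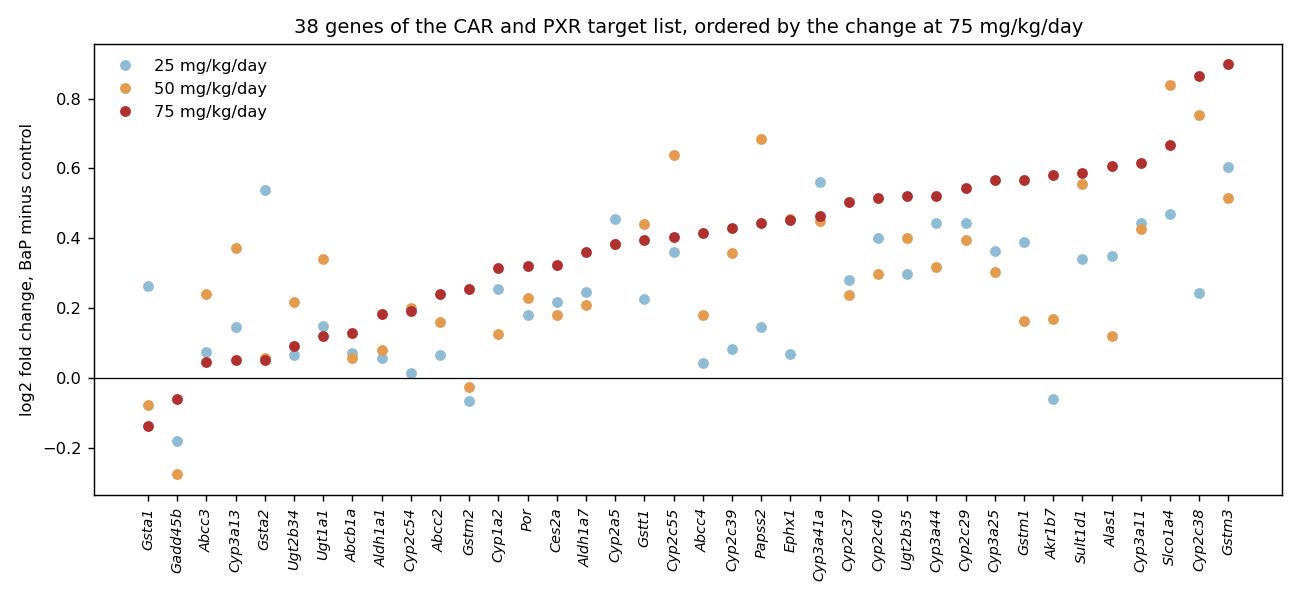
Difference from control on the log2 scale (y axis) at 25, 50 and 75 mg/kg/day (colours) for the 38 tested genes of the CAR and PXR target list (x axis, ordered by the value at 75 mg/kg/day, brighter probe of each gene). At 75 mg/kg/day 36 of 38 lie above 0, from -0.14 for *Gsta1* to 0.90 for *Gstm3*.

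Over all 50 probes of the target genes, 1 was called at 75 mg/kg/day, where 0.132% of all probes were called higher. This was the dimmer *Cyp3a44* probe (A_52_P366803), named here after its values were seen. It was 0.52 ± 0.44 in control and 3.38 ± 0.75 at 75 mg/kg/day (SD, n = 5 each), a difference of 2.86 (SE 0.40, adjusted p = 0.002 by limma). All 5 of 5 mice were above all controls, as was the case for 0.936% of probes. Its liver signal was well above background on only 3 of 5 control arrays. At least 1 probe of another target gene passed the adjusted p at this dose but not the fold limit. The brighter *Cyp3a44* probe gave 0.52 (adjusted p = 0.456 by limma), so the probes of this gene, a CYP3A family P450 with close relatives, disagreed. Probes of *Cyp3a25* (0.57 and 0.06) and *Abcc3* (0.05 and 0.44) also differed.

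Partners and regulators of the receptors, 21 genes and all tested, had no call at any dose. *Rxra*, the dimer partner of CAR and PXR, was at 0.04 at 75 mg/kg/day. *Hsp90aa1*, a chaperone of the cytoplasmic CAR complex, was at -0.61 (SE 0.32, adjusted p = 0.491 by limma), *Ppargc1a*, a coactivator, at 0.43 (adjusted p = 0.539) and *Rxrg* at -0.36 (adjusted p = 0.326). The median of the list was 0.09, with 13 of 21 positive.

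The other *Cyp2* genes of the chromosome 7 cluster, 6 tested of 8, had no call either. *Cyp2g1*, next to *Cyp2b19* in the gene order and known as an olfactory P450, was at 1.07 at 50 mg/kg/day with 5 of 5 mice above all controls (0.516% of probes had this), and at 1.15 at 75 mg/kg/day (SE 0.25, adjusted p = 0.0758 by limma). With the deposited LOWESS ratios it was at 1.46 at 75 mg/kg/day and passed (adjusted p = 0.0217 by limma). It also passed without control replicate 4 (1.30, adjusted p = 0.0434) and without replicate 19 at 75 mg/kg/day (1.40, adjusted p = 0.00539 by limma). *Cyp2f2* was at 0.64 (adjusted p = 0.337 by limma) and *Cyp2a12* at 0.51 (adjusted p = 0.351).

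Genes with known sex-biased liver expression were set beside *Cyp2b9* and *Cyp2b13* because these are female-biased. Of 11 tested female-biased genes none was called by its brightest present probe and 10 were positive at 75 mg/kg/day (median 0.47, and 0.07 in the liver channel alone). Some of these genes, such as *Cyp3a41a* and *Cyp3a44*, are also on the target list, and *Cyp2a4* is also on the cluster list. The counts of these lists are therefore not independent. The dimmer *Cyp3a44* probe, given above, was called (2.86, adjusted p = 0.002 by limma). Of 13 male-biased genes none was called and 13 were positive (median 0.33, and -0.13 in the liver channel alone, with 4 of 13 positive there), with *Hsd3b5* and *Cyp7b1* at 0.48 each and *Cyp4a12a* at 0.42. Of 9 tested regulators of sex-biased expression none was called. At an unadjusted p under 0.05 by limma, 5 of these 9 were higher at 75 mg/kg/day. So were 5 of the 11 female-biased and 3 of the 13 male-biased genes, beside 7.58% of all genes. *Socs2*, a growth hormone and STAT5 feedback inhibitor, was at 1.22 (SE 0.48, adjusted p = 0.351 by limma), *Prlr* at 0.72 (adjusted p = 0.191) and the repressor *Bcl6* at -0.65 (adjusted p = 0.671).

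Markers of cell types were read on the same arrays. The mean ratio of the 5 present hepatocyte markers was 4.59 to 5.87 in controls and 5.38 to 5.84 at 75 mg/kg/day, and none was called at any dose. The 8 Kupffer cell markers averaged 2.15 to 2.57 in controls and 2.33 to 2.97 at 75 mg/kg/day. Of these 8, *Marco* alone was called (2.19, adjusted p = 0.00148 by limma), where 0.193% of all genes were called higher. The median of the 8 differences was 0.10, and -0.09 in the liver channel alone, with 5 of 8 negative there. The 8 endothelial markers averaged 2.40 to 3.27 in controls and 3.14 to 3.81 at 75 mg/kg/day. Of these 8, *Lyve1* alone was called (2.23, adjusted p = 0.0189 by limma). The median of the 8 differences was 0.32, and 0.34 in the liver channel alone, with 7 of 8 positive in both. None of the 4 tested neutrophil or 5 tested bile duct markers was called at any dose. The part of these shifts in the *Cyp2b* values was not tested.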

How the data were processed

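Liver RNA of 20 mice was measured on two-colour Agilent mouse oligonucleotide arrays by the authors, who deposited 1 Feature Extraction (version 10.1.1.1, array design on build mm8) scanner file per array. The deposited intensity values are the linear median pixel signal and background of each spot and channel, as the authors' scanner software measured them. Per the labels, Cy5 was the liver RNA and Cy3 the reference. The authors also deposited 1 table of log2 ratios (LOWESS-normalised), used only as an alternative, whose columns correlated with the ratios computed here at 0.994 to 0.996 per array and had medians of -0.0426 to -0.0202. The authors removed 1 unnamed sample and tested with MAANOVA. Their paper lists *Cyp2b9* among the genes up-regulated at its highest dose. Here all 20 arrays were kept and limma was used, and no *Cyp2b9* probe was called at any dose. The reason for this difference from the paper was not tested.

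Median signals were corrected with normexp (offset 50) and loess within each array (R 4.3.3, limma 3.58.1), with outlier spots left out. Presence followed the methods: on 4 or 5 arrays of a group, the liver signal had to pass a limit set from 153 negative control spots, their mean after trimming (5%) and 3 SDs, trimmed likewise, which kept 27346 of 41174 probes (18195 with a gene symbol, 12986 genes). No spot was saturated. Probes were tied to genes through RefSeq accessions. Each dose was compared with control by limma over all present probes, with Benjamini-Hochberg adjustment. A call needed a fold above 1.5 and, together with it, an adjusted p below 0.05. The trend was a linear fit on dose. Differences in change between 2 genes were compared by exact permutation tests on their within-array difference, and correlations by 100000 permutations. The precision is limited by the 5 arrays per group. On simulated data for the 75 mg/kg/day comparison (27346 probes, log2 change of 1.5), 194 of 200 changed probes were recovered with 4 wrong calls. This recovery need not hold for most *Cyp2b9*, *Cyp2b10* and *Cyp2b13* probes. Their within-group SDs were 0.70 to 0.90, beside a median of 0.22 over present probes.

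Named were every member probe, the genes called or with the 3 largest differences at 75 mg/kg/day in each list, and the 5 genes most like each member. One gene that this rule names is not reported here. A gene with several probes was represented by its brightest present one. Members and lists were chosen with earlier results of these data known. Alternatives were processed signals, median centring, the deposited LOWESS ratios, the liver channel alone with quantile normalisation, other presence filters, slide as a block, the mean of a gene's probes and leaving out each mouse. The 250 bases before each gene start came from RefSeq (GRCm38.p6). Figures were drawn with matplotlib 3.10.9 (Python 3.11.15).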

Additional observations from a re-analysis of the deposited data

Results flagged for a closer look

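In 2 of the 32 combinations of member probe and group, 1 mouse lay farther from the other 4 than 95% of such groups of 5 would by chance, which is close to the 1 in 20 that chance gives. On the brighter *Cyp2b9* probe, replicate 19 at 75 mg/kg/day read 5.65, while the other 4 mice of its group read between 5.99 and 6.10, a gap of 0.75 of the range of the group. On *Nr1i3*, replicate 7 at 25 mg/kg/day read 3.88, while the other 4 read between 4.21 and 4.29, a gap of 0.81 of the range.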

How the results depend on the processing

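No analysis paired by replicate number was possible because the numbers run from 1 to 20 without repeating across the groups, and slide was fitted as a block instead. The count of 0 member probes called held at each dose under all 9 alternatives that kept every mouse, and at 75 mg/kg/day it ran from 0 to 1 when mice were left out (1 without control replicate 1 and without replicate 19 of the 75 mg/kg/day group). The count of 1 member probe with a trend became 0 with processed signals, median centring, the deposited LOWESS ratios, the liver channel alone and no presence filter, and ran from 0 to 1 when a mouse was left out, keeping 1 in 3 of 20 such fits. The count of called target genes at 75 mg/kg/day became 1 with processed signals (*Cyp2c38*, 4.1) and 1 with the well-above-background filter (*Gstm3*, 0.90), and ran from 0 to 3 when a mouse was left out (3 without control replicate 1, 1 without replicate 9 at 25 mg/kg/day). For *Cyp2c38* the liver signal was well above background on only 2 of 5 control arrays.

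With processed signals, values of opposite sign were -0.056 and -0.14 for the brighter *Cyp2b9* probe at 25 and 50 mg/kg/day, 0.090 for *Rxrg*, -1.33 and -1.03 for *Cyp2b9* minus *Cyp2b10* at 25 and 75 mg/kg/day, 0.64 and 1.34 for *Cyp2b10* minus *Cyp2b13* at 25 and 50 mg/kg/day, and r = 0.069 for *Nr1i2* with *Cyp2b10*. That r was 0.029 with median centring and 0.058 with the LOWESS ratios. Median centring gave -0.052 for *Nr1i3* at 50 mg/kg/day and 0.10 for *Cyp2b9* minus *Cyp2b13* at 25 mg/kg/day. It moved the median of all genes to 0.13 at 75 mg/kg/day, where the target median was 0.57. The liver channel alone gave *Nr1i3* -0.23 and -0.061 at 25 and 50 mg/kg/day, *Nr1i2* -0.026 and -0.0086 at 50 and 75 mg/kg/day with a trend of -0.019, *Cyp2a12* -0.064, *Hsd3b5* -0.26, *Cyp7b1* -0.20, *Cyp4a12a* -0.83, *Cyp2b9* minus *Cyp2b10* 0.76 at 50 mg/kg/day, *Cyp2b9* minus *Cyp2b13* 0.30, 0.12 and 0.31 at the 3 doses, r = -0.0080 for *Nr1i2* with *Cyp2b9* and r = -0.075 for *Nr1i2* with *Cyp2b13*. With slide means removed *Cyp2b9* minus *Cyp2b10* at 25 mg/kg/day was -0.011 and r of *Nr1i3* with *Cyp2b10* was -0.11. The cause was not tested.

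Leaving out 1 mouse at a time gave -0.18 to 0.091 for *Cyp2b9* minus *Cyp2b13* at 25 mg/kg/day, -0.44 to 0.0012 for *Cyp2b10* minus *Cyp2b13* at 50 mg/kg/day, r of -0.028 to 0.45 for *Nr1i3* with *Cyp2b10*, -0.18 to 0.13 for *Nr1i2* with *Cyp2b10*, and 0.53 to 0.74 for *Nr1i3* with *Cyp2b9*, which lost its call without control replicate 2 or 3. Reference signal near background limits the ratios of *Cyp2b10* and the dimmer *Cyp2b9* probe, and on some arrays those of both *Cyp2b13* probes.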
